A study of Mus musculus with 82 samples.

Results

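The late phase after 6 Gy was read from 11 of the 82 skin arrays of the series. The 6 Gy group held the 7 arrays labelled 6Gy at d21 and d28, from 4 mice (M016, M018 and M019 at both time points and M020 at d28 alone). The sham group held the 4 arrays labelled 0Gy at the same time points, from 2 mice (M002 and M003, each at d21 and d28). All animals were young adult male C57BL/6j mice, and the 6 Gy mice had received whole-body X-rays once, 21 or 28 days before the biopsy. Sham mice were transported, anesthetized, shaved and biopsied like the irradiated ones but were not exposed. The same mice had already been biopsied on the back at earlier time points and sutured, so that both groups carried earlier biopsy sites. Each array compared RNA of a whole dorsal skin biopsy, labeled with Cy5, with a purchased reference RNA, labeled with Cy3, and all levels below are log2 ratios of Cy5 to Cy3.

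Whole-body radiation damages dividing cells of the hair follicle, the epidermis and the bone marrow, which sends leukocytes to the skin. Interferon-inducible genes respond to viral RNA and DNA, to DNA that leaks into the cytoplasm and to signals from leukocytes, and their products block viral replication or carry the signal on. Major histocompatibility complex (MHC) class II molecules present peptides to helper T cells and are made in skin mostly by Langerhans cells, dermal dendritic cells and macrophages. A biopsy mixes these cells with keratinocytes, follicles, fat and muscle, and in such bulk RNA fewer cells of a type and less RNA per cell cannot be told apart.

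Values of the same 11 arrays were taken from both available sources: log2 ratios normalized here from the scanner files by loess, called scanner values, and the authors' own table of normalized log2 ratios, called deposited values. Each deposited column was closest to the scanner values of its own array among 11 of 11 arrays, with correlations of 0.916 to 0.963 across probes. The Cy5 channel was well above background for 44.8% to 70.9% of the probes of an array. The arrays had been scanned on 2 days: day 1 held both sham arrays of d21 with those of M018 and M019 at d21, and day 2 held the other 7, the array of M016 at d21 among them, so that time point and scan day largely coincided. No slide held late arrays of both doses. The interquartile range of the scanner values over the tested probes ran from 0.432 (M018, d28) to 1.17 (M020, d28), against 0.861 to 0.942 in the deposited values. Of the 1000 brightest probes, 9.5% to 31.7% were missing as outlier spots on the arrays of scan day 1, and 0% to 6.5% on those of day 2. The skin label held on every array, with the keratins Krt5 and Krt14 and the cornified envelope protein Lor (loricrin) above the reference wherever measured.

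Over the 23974 probes tested, no transcript passed the criterion of a significantly differentiated gene (SDTG, at least 2-fold apart with a Benjamini-Hochberg adjusted p under 0.05) between 6 Gy and sham in the scanner values. The share called was 0%, and the lowest adjusted p from limma was 0.938, with time point as a term and mouse as a random block. Without adjustment, 249 probes (1.04%) were higher at 6 Gy and 623 (2.6%) lower at p under 0.05. Every difference between 6 Gy and sham named below from the scanner values had an adjusted p of 0.672 or more, so that its size and standard error (±) are a description of these arrays. The same fit of the deposited values called 29 probes (0.121%), 18 higher and 11 lower, with 2185 (9.11%) higher and 2294 (9.57%) lower before adjustment. Counts of list members under 0.05 in the deposited values are to be read against these shares. The 29 probes all had the same sign in the scanner values, and 10 of them were under 0.05 there without adjustment. The deposited calls depended on how the mice entered the fit: without the block 4 probes were called, of H2-Aa, H2-Ab1 and Cyp1a1, and with arrays averaged per mouse 8, of which 7 were among the 29. The correlation within mice that the block used was -0.201 in the deposited values (0.148 in the scanner values), and a negative one narrows the standard error of a difference between mice. Leaving out M016 or M018 left none, and leaving out M002 gave 148. With 2 sham mice against 4, a single value has 15 splits of the mice and an exact permutation p of at least 0.0667, so that no single gene can pass 0.05 by that test.

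The interferon response list held 5 of the genes called in the deposited values, more than any other list, and is described first. The up to 12 genes of lowest p in each direction with at least a 2-fold difference in the scanner values were also named, and none of the 24 was an SDTG there. The higher ones were Ifit3, Angptl4, Rtp4, Oasl2, Lgals3bp, Irf7, Junb, Cpne2, Hnrnpu, Rsad2, Bst2 and Defb8, of which all 12 were also higher, and under 0.05 without adjustment, in the deposited values. A gene with several probes is given by its brightest, here and in all counts over lists, unless another probe is named. The lower ones were Lce1c, Gbf1, Ide, Crct1, Asprv1, Mylpf, Acer1, Flg2, Mlf1, H1f5, Bmpr2 and Pcm1, and 8 of these 12 were lower and under 0.05 without adjustment in the deposited values.

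Interferon-inducible genes were higher at 6 Gy than in sham as a group. All 19 tested members of the interferon response list had a higher mean at 6 Gy in the scanner values, with a median log2 difference of 0.71 against -0.01 over all probes tested. Of the 19, 6 were under 0.05 without adjustment and none was an SDTG. All 19 were again higher in the deposited values, with a median of 0.67, and 5 were SDTGs: Ifit1, Ifit3, Isg15, Oasl2 and Rsad2. None of the 5 was called without the mouse block (limma adjusted p of 0.0901 to 0.113), and over mouse means Isg15 alone was (0.0443, the others 0.0754 to 0.0891). The median was above 0 within scan day 1 (0.61) and within scan day 2 (0.84), and it was 0.61 without M019, the mouse with the highest array. The list's median deviation on an array ran from -0.86 to -0.14 in sham and from -0.28 to 2.10 at 6 Gy, and M019 at d28 (2.10) and M020 at d28 (0.71) were the highest of all.

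Part of these genes carry the core of the interferon-stimulated response element close to their start. The core searched was a pair of GAAA separated by any 2 bases, on both strands, in the 250 bases before the start in RefSeq's GRCm38.p6 promoter table. It was found for 936 (3.46%) of the 27025 genes in that table, and for 10 of the 16 tested list members that have a window there. The sequences before the 3 of these genes whose groups did not overlap in the scanner values are printed 5′ to 3′ on the gene's strand with the matches in capitals. Ifit3 (chr19:34583279-34583528, plus strand) and Ifit1 (chr19:34640639-34640888, plus strand) hold 2 matches each, and Isg15 (chr4:156200819-156201068, minus strand) holds 3 that overlap. A match describes the letters and is not a measured binding site.
Ifit3: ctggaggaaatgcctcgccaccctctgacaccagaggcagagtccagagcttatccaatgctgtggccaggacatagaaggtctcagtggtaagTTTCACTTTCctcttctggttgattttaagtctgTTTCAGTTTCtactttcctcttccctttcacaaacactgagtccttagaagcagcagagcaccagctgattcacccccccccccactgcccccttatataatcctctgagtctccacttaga
Isg15: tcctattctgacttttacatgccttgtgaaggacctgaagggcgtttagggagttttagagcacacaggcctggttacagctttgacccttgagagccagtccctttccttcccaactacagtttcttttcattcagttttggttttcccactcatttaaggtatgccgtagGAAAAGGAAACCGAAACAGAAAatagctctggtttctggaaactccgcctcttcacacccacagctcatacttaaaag
Ifit1: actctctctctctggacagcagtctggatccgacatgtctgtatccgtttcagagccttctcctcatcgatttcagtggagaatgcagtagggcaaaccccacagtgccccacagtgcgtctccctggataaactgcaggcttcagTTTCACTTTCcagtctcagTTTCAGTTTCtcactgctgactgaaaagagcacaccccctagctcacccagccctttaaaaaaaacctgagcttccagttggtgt

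Ifit3, which belongs to a family of proteins that bind viral RNA, had the lowest p of the genes with an at least 2-fold higher mean. Its levels in sham were 0.31 (M002, d21), 0.86 (M002, d28), 0.15 (M003, d21) and 0.08 (M003, d28). At 6 Gy its lowest, median and highest levels were 1.03, 1.71 and 3.81. The groups did not overlap, and the log2 difference was 1.44 ± 0.46 (SE, limma adjusted p = 0.938). In the deposited values it was 1.30 ± 0.22 (limma adjusted p = 0.031), again without overlap. Over the 22245 tested probes measured on all 11 arrays, 62 (0.279%) lay wholly higher at 6 Gy in the scanner values, against 4 of the 17 list members with complete values. Those 4 were Ifit1, Ifit3, Irf7 and Isg15, whereas in the deposited values 6 of 19 members lay wholly higher against 0.872% of all probes.

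Isg15 encodes a ubiquitin-like protein that is joined to other proteins during an interferon response. Its sham levels were -1.56, -1.12, -1.47 and -1.20 (M002 d21, M002 d28, M003 d21, M003 d28). At 6 Gy they ran from -0.94 (M019, d21) through a median of -0.38 to 2.76 (M019, d28), above all 4 sham arrays. The log2 difference was 1.30 ± 0.59, and 1.21 ± 0.19 in the deposited values (limma adjusted p = 0.0286). Irf7, the transcription factor that amplifies type I interferon production, lay between -1.25 and -0.86 in sham and between -0.62 and 1.71 at 6 Gy. Its difference of 1.07 ± 0.41 was 0.63 in the deposited values, where its adjusted p was 0.0936. Both Irf7 and Ifit1 were well above background on 2 of 4 sham arrays and on 7 of 7 arrays of 6 Gy.

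Rsad2 (viperin, an antiviral enzyme of the endoplasmic reticulum) had a difference of 1.36 ± 0.56 in the scanner values. Oasl2, of the family that senses double-stranded RNA, was higher by 1.26 ± 0.45, and Bst2 (tetherin, which holds budding virus at the cell surface) by 1.20 ± 0.51. For these 3 genes the highest sham array lay above the lowest array of 6 Gy. Rtp4, an interferon-inducible chaperone of membrane receptors that was not on the list, was higher by 1.49 ± 0.51. Lgals3bp, a secreted protein that binds galectin-3, was higher by 1.19 ± 0.42. At the other end of the list, Usp18 (0.18), Psmb8 (0.29), Gbp2 (0.32) and Ifi44 (0.36) had smaller differences in the scanner values, and none of these was under 0.05.

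**Figure D1:**
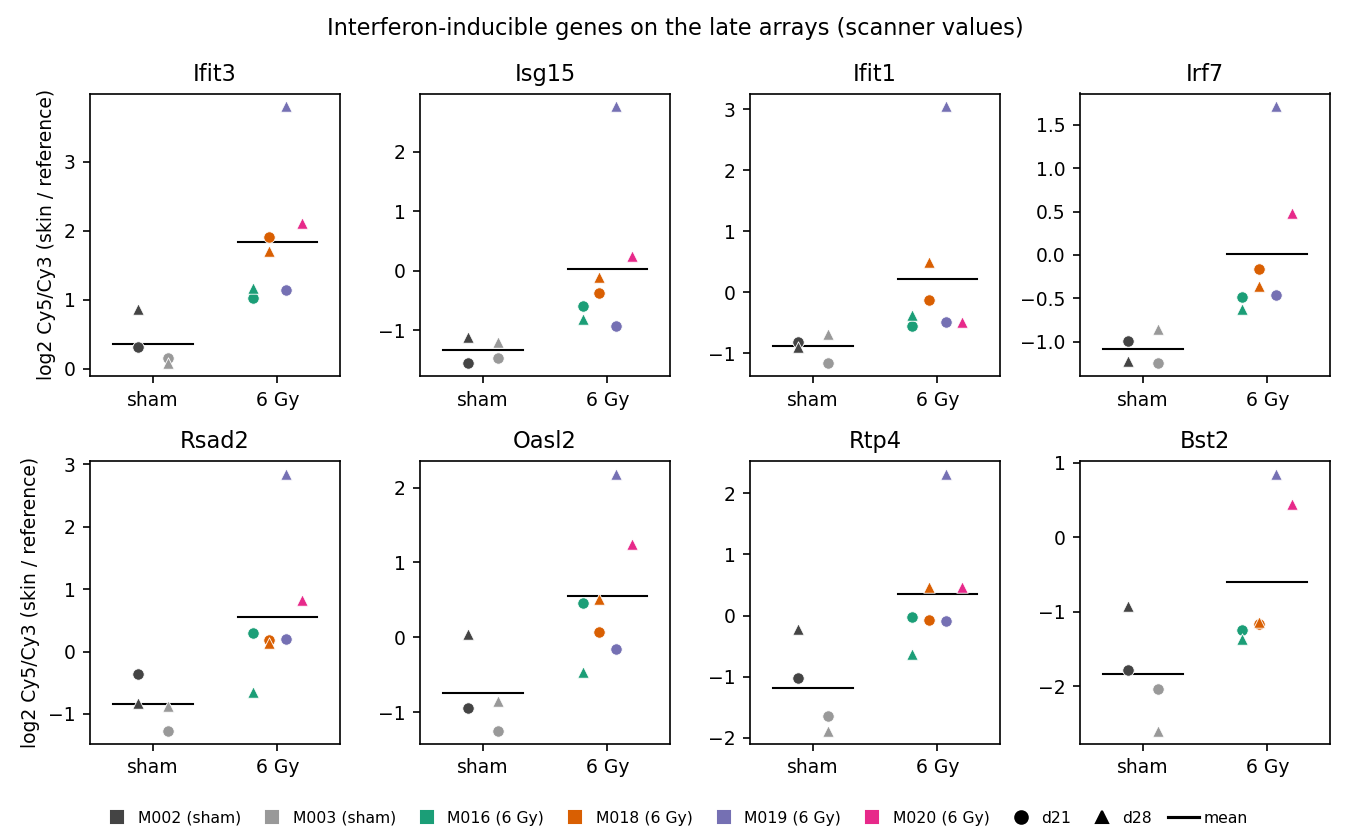
Levels of 8 interferon-inducible genes on the 11 late arrays. The vertical axes give the log2 ratio of Cy5 (skin) to Cy3 (reference) in the scanner values, points are arrays colored by mouse and shaped by time point, and the black lines are group means. The array of M019 at d28 is the highest for each of the 8 genes, and Ifit3, Isg15, Ifit1 and Irf7 do not overlap between the groups.

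The effect on this list was read at both time points. Its median log2 difference was 0.49 at d21, where 17 of 19 members were higher, and 0.99 at d28, where all 19 were higher and 4 were under 0.05 without adjustment. No member of the list was under 0.05, even without adjustment, for the difference between the time points. In the fit of all 26 late arrays of sham, 1, 3 and 6 Gy, the list's median against sham was 0.30 at 1 Gy, 0.16 at 3 Gy and 0.75 at 6 Gy, from comparisons that share the sham arrays. Set directly against the other doses, Ifit3 was higher at 6 Gy than at 1 Gy by 1.00 and than at 3 Gy by 1.02. Neither difference passed adjustment over all probes, with lowest adjusted p-values of 1.00 against 1 Gy and 0.744 against 3 Gy over the whole array and no SDTG (0%) in either comparison. The deposited values gave no SDTG between 6 and 1 Gy and 36 between 6 and 3 Gy, 27 higher and 9 lower.

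MHC class II genes were lower at 6 Gy, and the size of the difference depended on the value set. All 6 tested members had a lower mean at 6 Gy in the scanner values, with a median log2 difference of -0.47, and none was under 0.05. The median was -0.45 at d21 and -0.24 at d28, where 2 of 6 were higher. It was -0.98 within scan day 1, -0.18 within scan day 2 and -0.27 without M019, all in the scanner values. In the deposited values all 6 were lower with a median of -0.85, all 6 were under 0.05 without adjustment, and H2-Aa and H2-Ab1 were SDTGs. Against the same sham arrays, the median of the list was -0.71 at 1 Gy and -0.17 at 3 Gy, beside -0.49 at 6 Gy in that fit.

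H2-Aa, the alpha chain of the class II molecule I-A, had the largest called decrease in the deposited values. Its deposited levels in sham were 6.59, 6.60, 7.08 and 7.14 (M002 d21, M002 d28, M003 d21, M003 d28). At 6 Gy they were 5.36 and 4.47 in M016, 4.85 and 5.18 in M018, 5.35 and 5.49 in M019 (d21 and d28 each) and 4.44 in M020. No array of 6 Gy reached the lowest sham array, and the log2 difference was -1.81 ± 0.20 (limma adjusted p = 0.00921, a 3.50-fold decrease). Its adjusted p was 0.035 without the mouse block and 0.0607 over mouse means, where it was not called. Such lower, non-overlapping values were seen for 231 probes (0.964%) in the deposited values. In the scanner values H2-Aa was 3.94, 7.38 and 6.38 on the 3 sham arrays where its spot was kept and 2.31 to 5.69 at 6 Gy. These groups overlapped through the sham array of M002 at d21, with a difference of -0.96 ± 0.63. A second probe of H2-Aa was also called in the deposited values, at -1.25.

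The 250 bases before H2-Aa (chr17:34287824-34288073, minus strand, GRCm38.p6 in RefSeq) are shown because class II promoters share a conserved Y box, whose core ATTGG (searched on both strands) is in capitals. That short core was found before 10133 (37.5%) of 27025 genes, and before all 3 tested class II genes with a window in the table (H2-Aa, H2-DMa and H2-DMb1).
H2-Aa: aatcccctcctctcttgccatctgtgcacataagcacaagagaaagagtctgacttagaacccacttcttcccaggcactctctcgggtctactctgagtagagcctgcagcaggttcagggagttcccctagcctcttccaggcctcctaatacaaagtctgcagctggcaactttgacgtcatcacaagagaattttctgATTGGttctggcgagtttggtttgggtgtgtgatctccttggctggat

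H2-Ab1, the beta chain of the same molecule, was called with 3 probes in the deposited values, at -1.33, -1.23 and -1.07. Its brightest probe lay at 5.03 to 5.82 in sham and at 3.66 to 5.12 at 6 Gy there, and overlapped through M016 at d21. In the scanner values the same probe differed by -0.54 ± 0.38. Cd74, the invariant chain that escorts class II molecules, differed by -0.89 ± 0.22 in the deposited values (limma adjusted p = 0.0752) and by -0.46 ± 0.54 in the scanner values. H2-DMb1, part of the peptide exchanger H2-DM, differed by -0.68 in the deposited values (limma adjusted p = 0.0462, under a 2-fold change). Ciita, the transactivator of all class II genes, differed by -0.63 in the deposited and -0.20 in the scanner values.

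**Figure D2:**
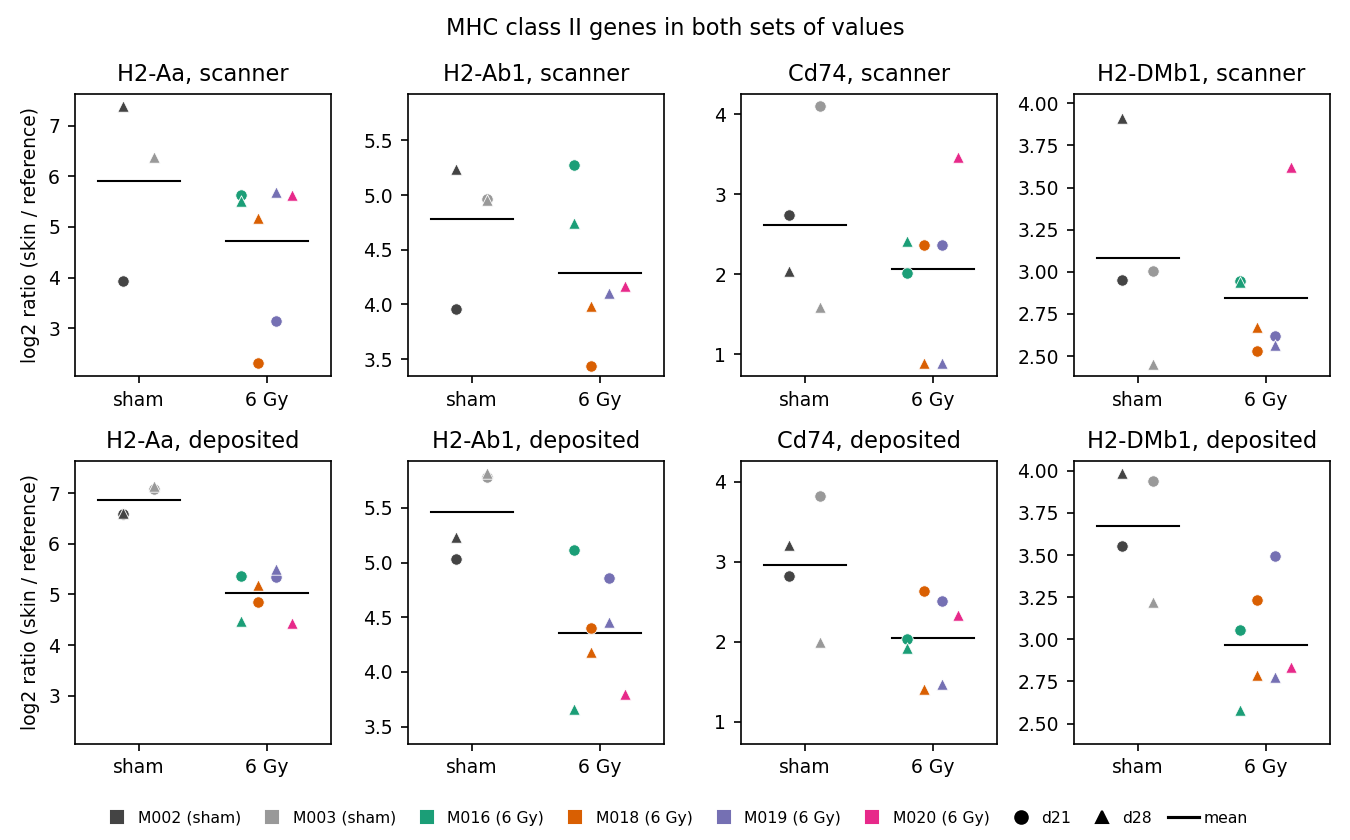
Levels of 4 MHC class II genes on the late arrays in the scanner values (top) and the deposited values (bottom), as log2 ratios of skin to reference on a shared axis for each gene. Points are arrays, colored by mouse and shaped by time point, and lines are group means. For H2-Aa the sham arrays (6.59 to 7.14) lie above all arrays of 6 Gy (4.44 to 5.49) in the deposited values alone.

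Markers of the cells that carry class II molecules did not all go the same way. Of the 5 tested dendritic and Langerhans cell markers, 3 were higher and 2 lower (Cd207 and Itgax) in the scanner values, with a median of 0.02. Cd207 (langerin, the defining marker of Langerhans cells) was 3.68 and 3.40 in sham at d28 and between 0.57 and 2.77 at 6 Gy at d28. Its difference at d28 was -1.92 ± 0.52 (limma adjusted p = 0.672), against 0.12 ± 0.55 at d21, and the difference between the time points had a limma adjusted p of 0.974. Pooled over both time points Cd207 differed by -0.94 ± 0.52, and by -0.35 in the deposited values. Itgax (CD11c, of dendritic cells and some macrophages) differed by -0.54 in the scanner and -0.70 in the deposited values, without passing adjustment in either. In the scanner values the 8 tested macrophage markers had a median of -0.08 (2 higher, 6 lower), the 7 T cell markers 0.13, the 4 B and plasma cell markers -0.14 and the 3 NK cell markers -0.02, and no gene of these lists was under 0.05 over both time points in the scanner values. In the deposited values 4 of 5 dendritic and Langerhans cell markers were lower, and the lower ones under 0.05 without adjustment were 2 of these 5, 2 of 8 of the macrophage, 1 of 7 of the T cell and 2 of 3 of the NK cell markers, with 1 dendritic and 1 B cell marker higher at that level. The shares over all probes there were 9.57% lower and 9.11% higher, and in lists of 3 to 8 markers such counts are not read as a result. The macrophage median was 0.17 without M002.

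Neutrophil markers were mostly below the filter on low values, with 3 of the 8 on the array tested. Those 3 had higher means at 6 Gy, with a median of 0.79, which was 0.14 without M003 and 0.14 within scan day 1. S100a8 and S100a9, which form the antimicrobial protein calprotectin and are also made by stressed keratinocytes, differed by 0.79 ± 0.61 and 0.84 ± 0.90. S100a9 ran from 1.88 to 5.16 in sham and from 2.77 to 6.91 at 6 Gy, and its difference was -0.62 without M003. The defining receptor gene Csf3r did not pass the filter, and its level was above 1 on a single array, that of M020 at d28 (1.59).

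Immediate early genes, which are transcribed within minutes of a stimulus and include the subunits of the transcription factor AP-1, were higher at 6 Gy. All 12 tested members had a higher mean in the scanner values, with a median of 0.56, and 6 were under 0.05 without adjustment. Of the 12, 11 were higher in the deposited values with a median of 0.65, and Fos and Junb were SDTGs. The median was 0.96 within scan day 1 and 0.49 within scan day 2. At 3 Gy the median against the same sham arrays was 0.97, larger than the 0.58 at 6 Gy in that fit, and 0.33 at 1 Gy.

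Fos was -1.30 and -0.71 in sham at d21 and -2.98 and -1.77 at d28 (M002 and M003). At 6 Gy it was -0.32 (M016), 1.18 (M018) and 1.60 (M019) at d21, above both sham arrays of that day. At d28 it was -2.19, -1.52, -1.82 and -2.62 (M016, M018, M019, M020), and 1 of the 4, M018, lay above both sham arrays. The difference was 1.82 ± 0.56 at d21 and 0.34 ± 0.53 at d28. The difference between the time points was not under 0.05 even without adjustment. Junb, measured on 3 sham and 6 irradiated arrays, differed by 1.27 ± 0.47, and by 1.49 ± 0.26 in the deposited values (limma adjusted p = 0.0354). Jun, the partner of Fos in AP-1, differed by 0.57 ± 0.18. Atf3, Dusp1 and Ier2 were higher by 0.55, 0.62 and 0.74, each under 0.05 without adjustment. The IL-6 signaling list, which shares Fos and Junb with this one, had 16 of 19 members higher and a median of 0.18. Among its members that are not immediate early genes, Socs3, the feedback inhibitor of IL-6 signaling, was higher by 0.46 ± 0.20 and Cebpb by 0.86 ± 0.34, both under 0.05 without adjustment. Their deposited differences were 0.34 ± 0.08 and 0.10 ± 0.15, and 6 members of the list were higher and 3 lower under 0.05 there without adjustment. The chemokine Ccl2, which recruits monocytes, was higher by 0.98 ± 0.41, and by 1.32 ± 0.24 in the deposited values (limma adjusted p = 0.0358).

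The other deposited calls were of mixed function. Ear1 and Ear10, ribonucleases of eosinophils and macrophages, had log2 differences of -1.59 ± 0.24 and -1.43 ± 0.19, but they belong to a family of nearly identical genes whose transcripts a probe may not separate. Dmkn (dermokine, made in the suprabasal epidermis), Hspb1 (a small heat shock protein) and Crip3 had log2 differences of -1.50, -1.13 and -1.28. Cyp1a1, the xenobiotic-metabolizing target of the aryl hydrocarbon receptor, was higher by 1.01 ± 0.12 (limma adjusted p = 0.00921), with deposited levels of 0.51 to 2.09 in sham and 1.82 to 2.89 at 6 Gy. Abhd3, Cpb2, Acoxl and Defb8, a beta-defensin, were higher by 1.20, 1.24, 1.16 and 1.97. Ifi202b and Ifi204, DNA sensors of the interferon-inducible p200 family with close sequence likeness to each other, were higher by 1.53 and 1.14. In the scanner values, Cyp1a1 differed by 0.52 ± 0.48, Ear1 by -1.05 ± 0.66 and Ifi202b by 0.44 ± 0.48.

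Hair follicle genes varied more between arrays than between doses. Hair growth in adult mice runs in cycles, and genes of the inner root sheath, the hair shaft and its keratin-associated proteins are transcribed in the growing phase. Over the 5 tested inner root sheath markers, the median deviation in the scanner values was 3.79, 3.27 and 3.12 on the d28 arrays of M016, M019 and M020, and -1.52 on that of M018. On the 3 arrays of 6 Gy at d21 it was -1.08, -2.13 and -2.32, and in sham it ran from -2.27 to 0.85. Krt71, a keratin of the inner root sheath, showed the same split, with levels of 6.53, 6.70 and 6.25 on those 3 arrays of d28, 0.05 in M018 at d28 and -0.16 to 0.58 at 6 Gy at d21. The sham mouse M002 also had high Krt71 (5.04 at d21 and 4.57 at d28), whereas M003 did not (0.17 and -0.06). The list's median difference was -0.65 at d21 and 1.88 at d28 in the scanner values. It was -1.44 over both time points in the deposited values, with 5 of 5 lower, 3 of them under 0.05 without adjustment, beside 9.57% of all probes lower. Over both time points the scanner median was 0.49, with 5 of 5 higher, so that the direction depended on the value set. Without M002 this pooled scanner median was 1.47 and without M003 0.10.

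The keratin-associated proteins, which fill the hair shaft, had 20 of 21 tested members higher in the scanner values (median 0.48) and 20 of 21 lower in the deposited values (median -0.24), with none under 0.05 in the first and 1 in the second. The 10 tested hair shaft markers had a median of 0.37 in the scanner and -0.48 in the deposited values. In the latter all 10 were lower, 3 of them under 0.05 without adjustment, beside 9.57% of all probes lower. The regulators of the hair cycle, 16 genes, had a median of -0.01 in the scanner values with no member under 0.05, and of -0.11 in the deposited values with 1 higher and 2 lower. Of the single genes, Krt25 differed by 3.63 ± 1.46 at d28, and no gene of these lists passed adjustment.

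**Figure D3:**
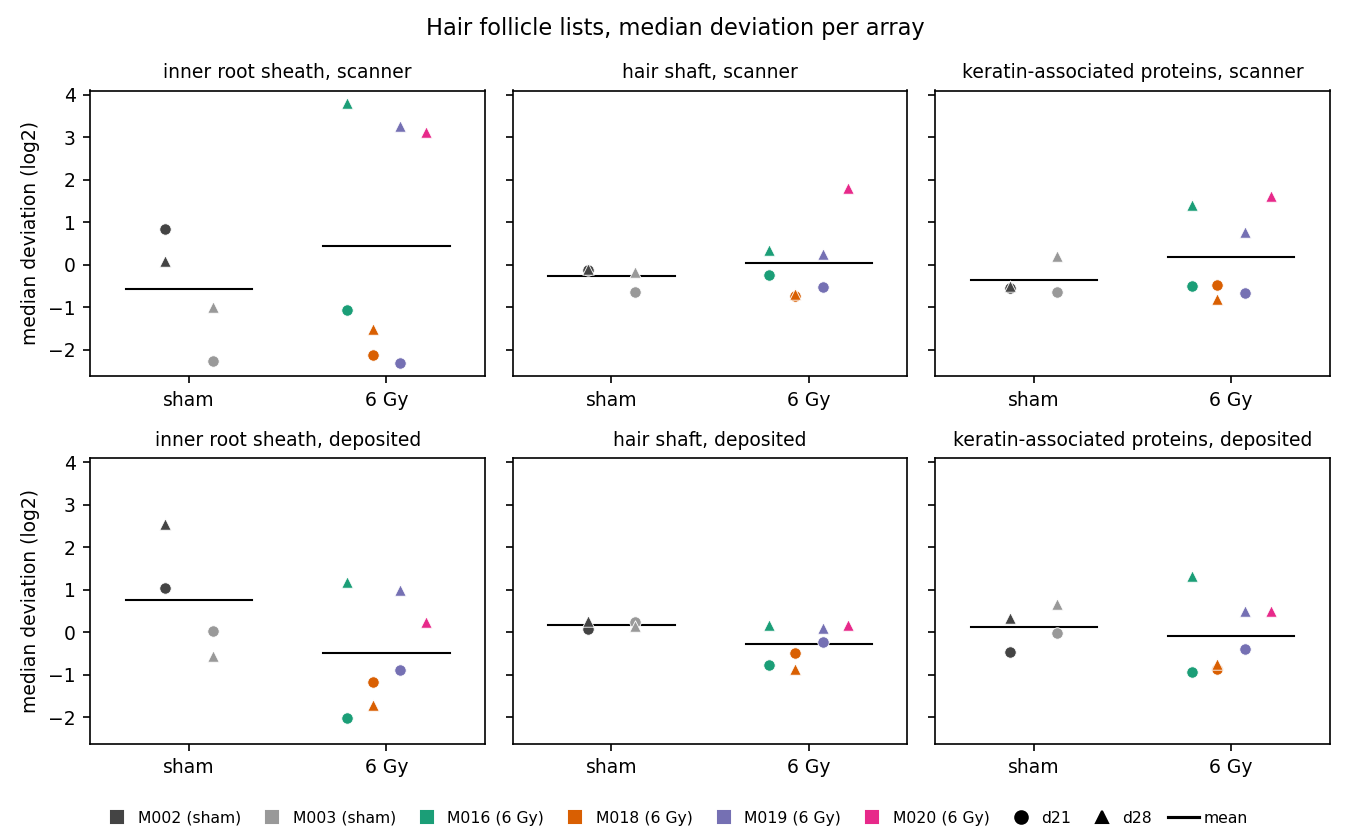
Median deviation of 3 hair follicle lists on each late array, that is, the median over tested members of a gene's level minus its mean over the 11 arrays, in log2 units. The top row shows the scanner values and the bottom row the deposited values, with arrays colored by mouse and shaped by time point and lines for group means. The d28 arrays of M016, M019 and M020 stand apart from that of M018 in the inner root sheath list (3.79, 3.27 and 3.12 against -1.52, scanner values).

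Epidermal differentiation genes had mostly lower means at 6 Gy at d28 and mostly higher means at d21. The cornified envelope list, the proteins cross-linked into the outer skin barrier, had a median of 0.39 at d21, with 21 of the 27 members fitted there higher. At d28 its median over 29 members was -0.87. There 6 members were under 0.05 and lower, beside 5.57% of all probes lower and 1.57% higher at d28 without adjustment. The suprabasal markers had medians of 0.48 at d21 (5 of 7 fitted) and -1.41 at d28. The kallikreins and Spink5, which control shedding of the surface, had medians of 0.28 (6 of 7 fitted) and -1.07. Members without a difference at d21 enter the d28 medians alone. No probe was an SDTG at d21 (0%), at d28 (0%) or for the difference between the time points (0%) in the scanner values, and the lowest adjusted p of these was 0.672. Before adjustment, 8 of the cornified envelope members had a p under 0.05 for that difference, all of them more negative at d28, beside 814 (3.44%) of the 23669 probes tested that were more negative and 171 (0.722%) that were more positive.

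Several of these spots were missing on scan day 1, and the differences moved with the scan day. Flg2, a filaggrin-related protein, was 6.76 and 7.22 in sham at d28 and 5.99, 4.36, 5.03 and 4.81 at 6 Gy at d28. Its spot was missing on both sham arrays of d21, and at 6 Gy the arrays of d21 were at 7.22 (M016) and 5.42 (M018), with that of M019 missing. The difference was -1.95 ± 0.53, -0.95 with the outlier spots kept, and -0.80 in the deposited values. Lce1c, of the late cornified envelope family, was 6.85 and 7.11 on the 2 sham arrays that measured it and 5.05 to 5.40 on 4 arrays of 6 Gy. Its difference of -1.81 ± 0.23 had the lowest p of all named genes, and it was -0.71 with the outlier spots kept and -0.79 in the deposited values (limma adjusted p = 0.266). Crct1, Asprv1 (the protease that matures profilaggrin) and Acer1 (an alkaline ceramidase of the epidermis) were at -1.54, -1.33 and -1.36, and at -0.85, -0.72 and -0.79 with the outlier spots kept. Their deposited differences were -1.52 (limma adjusted p = 0.0766), -1.01 and -0.65. Krt10, the main suprabasal keratin, differed by -1.61 ± 0.50 in the scanner values and by -1.27 ± 0.29 in the deposited values (limma adjusted p = 0.0581). The scanner differences of Flg2, Lce1c, Crct1, Asprv1, Acer1 and Krt10 could be fitted at d28 alone, whereas their deposited differences cover both time points.

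Within scan day 2, which holds both sham arrays of d28 and 5 arrays of 6 Gy, the median of the cornified envelope list was -0.51 and that of the suprabasal markers -1.01. Within scan day 1 they were -0.04 and 0.57. In the deposited values they were -0.32 and -0.78 over both time points, with 10 of 29 and 4 of 7 members lower and 0 and 1 higher at p under 0.05 without adjustment, and no SDTG. The basal markers, among them Krt5 (-0.31 ± 0.23), Krt14 (-0.32 ± 0.34) and the integrin Itga6 (-0.60 ± 0.24), had a median of -0.31. The part of scan day in these differences was not tested.

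Muscle and fat markers of the deep skin also had medians above 0 at d21 and below 0 at d28 in the scanner values. Skeletal muscle markers had a median of 0.19 at d21, with 10 of 11 fitted, and -1.0 at d28. Adipocyte markers had medians of 0.33 and -0.95. At d28, 0 of 11 and 0 of 9 were higher. Under 0.05 without adjustment 3 muscle markers and 1 fat marker were lower there, beside 5.57% of all probes. Mylpf, a light chain of fast muscle myosin, was 7.20 and 7.93 in sham at d28 and 5.81 to 6.62 at 6 Gy at d28. It was missing on both sham arrays of d21, and its difference was -1.25 ± 0.31, -0.60 with the outlier spots kept and -0.53 in the deposited values. Pvalb and Tnnt3, further muscle genes, differed by -1.02 ± 0.36 and -0.78 ± 0.43, and a second probe of Tnnt3, whose difference could be fitted at d28 alone, by -1.59 ± 0.28. The 2 Tnnt3 probes differed by -0.74 and -0.70 in the deposited values. Adipoq, the hormone adiponectin of fat cells, differed by -0.46 ± 0.46. Within scan day 2 the medians were -0.76 for muscle and -0.67 for fat, and within scan day 1 -0.37 and -0.06.

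**Figure D4:**
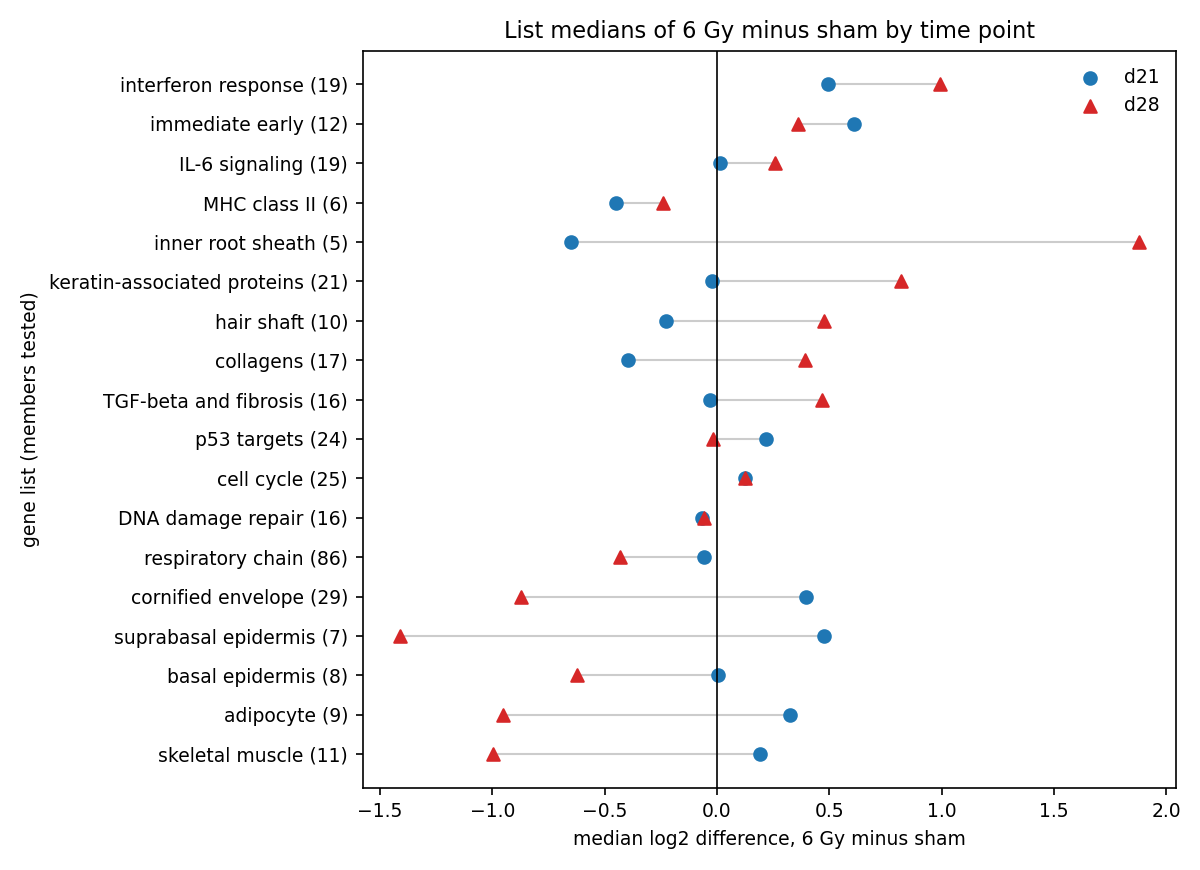
Median log2 difference of 6 Gy minus sham at d21 (circles) and d28 (triangles) for 18 lists in the scanner values. The number of members tested over both time points is in parentheses. The d21 medians cover only members with a fitted difference at d21, such as 73 of 86 for the respiratory chain and 5 of 7 for the suprabasal markers. The interferon response list is above 0 at both time points (0.49 and 0.99), and the epidermal, fat and muscle lists change from above or near 0 at d21 to below 0 at d28.

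Genes of the extracellular matrix were examined because the study followed them. The 17 tested collagens had a median of -0.40 at d21, with 2 of the 16 fitted there higher. Their median was 0.39 at d28, with 15 higher, and 0.03 over both. Col1a1, the main dermal collagen, was 4.52 and 4.80 in sham at d21 and 3.47 and 1.93 at d28, and ran from 2.58 to 4.93 at 6 Gy. Its difference was 0.23 ± 0.54 in the scanner and 0.10 ± 0.15 in the deposited values. Col3a1 differed by -0.10 ± 0.36 and by -0.52 ± 0.12 (limma adjusted p = 0.0645), respectively. By its brightest probe no collagen was under 0.05 over both time points in the scanner values, whereas a second probe of Col3a1 (-1.22 ± 0.50) and one of Col16a1 were. Of the 17, 13 were lower in the deposited values (median -0.14), 3 of them under 0.05 without adjustment and none higher at that level. The scanner median over both time points was -0.25 without M003 and 0.20 without M019, so that its sign depended on the mice kept. The lists that the study chose on these samples, and which are therefore not independent of them, had pooled scanner medians near 0 as well: GP6 signaling had a median of -0.09, intrinsic prothrombin activation -0.03 and the hematological genes 0.11, with no brightest probe of a member under 0.05. The time points went opposite ways, with medians of -0.40 at d21 and 0.21 at d28 for GP6 signaling and of -0.28 and 0.48 for prothrombin activation, whose deposited median was -0.25. Members of the prothrombin list were split at d28, with 6 higher and 2 lower. Of these, 1 was higher and 1 lower under 0.05 without adjustment, beside 1.57% and 5.57% of all probes. Among the deposited values 3 of 16, 2 of 8 and 0 of 8 members of these lists were lower, and 0, 0 and 2 higher, at p under 0.05 without adjustment, beside 9.57% of all probes lower and 9.11% higher there. Such small counts in lists of this length are not read as a result. Against the same sham arrays, the collagen median was -0.23 at 1 Gy and -0.57 at 3 Gy, beside 0.02 at 6 Gy. Thrombospondin (Thbs1), an activator of latent TGF-beta, was the 1 member of the TGF-beta and fibrosis list under 0.05 in the scanner values, at 0.60 ± 0.24. It was at 0.27 ± 0.09 in the deposited values, where 6 of 16 members were higher and none lower under 0.05 without adjustment.

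Damage response and proliferation genes had medians near 0 in the scanner values and, for the cell cycle, mostly higher means in the deposited values. Of 24 p53 targets, 16 were higher and 8 lower with a median of 0.11 in the scanner values, where Bbc3 (Puma, a pro-apoptotic protein) was the only one under 0.05, at 0.88 ± 0.38. Bbc3 was at 0.27 ± 0.14 in the deposited values, where the list had a median of 0.12 with 5 members higher and 3 lower under 0.05 without adjustment. Cdkn1a, the cell cycle inhibitor p21, differed by -0.47 ± 0.42, and Mdm2, the negative regulator of p53, by 0.19 ± 0.21. The 25 cell cycle genes had a median of 0.10 with none under 0.05 in the scanner values, and in the deposited values 23 of 25 were higher (median 0.20), 10 of them under 0.05 without adjustment. The 16 DNA repair genes had a median of -0.08 in the scanner values with none under 0.05, and of 0.04 in the deposited values with 1 higher and 1 lower. The 14 senescence-associated genes had a median of 0.05 in the scanner values, with Ccl2 as the single member under 0.05. Their median in the deposited values was 0.15, with 6 higher and 1 lower under 0.05 without adjustment and Ccl2 as an SDTG.

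The respiratory chain of the mitochondria had 70 of 86 tested members lower in the scanner values, with a median of -0.29. Of these, 9 were under 0.05 without adjustment, beside 2.6% of all probes lower. The list's median was -0.06 at d21, with 73 members fitted, and -0.43 at d28. The deposited values had 51 lower and a median of -0.06, and under 0.05 without adjustment 7 members were higher and 4 lower there. The list's median deviation was 0.59 on the sham array of M003 at d28, where that of the skeletal muscle list was also highest (1.11). It was between -0.34 and 0.08 on the other 10 arrays. Without M003 the median difference was -0.14. Without M002 it was -0.44, and without M019 it was -0.28. Ndufa10, a subunit of complex I, was the 1 member that lay wholly lower at 6 Gy, with sham levels of -0.21 to 0.64 and levels of -1.31 to -0.23 at 6 Gy, and such values were seen for 71 probes (0.319%). Cytosolic ribosomal proteins had a median of -0.10, which was 0.13 without M003 and -0.22 without M002. Of the 75 tested, 1 was higher and 1 lower under 0.05 without adjustment. In the deposited values their median was 0.01, with 13 higher and 7 lower at that level, beside 9.11% and 9.57% of all probes.

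Several of the named genes with a lower mean rested on the sham mouse M003. Gbf1, an exchange factor of the Golgi, was 0.31 and 0.50 in M002, 1.44 and 1.81 in M003 and -0.40 to 0.04 at 6 Gy, without overlap. Its difference of -1.21 ± 0.28 was -0.60 without M003, and it was -0.00 in the deposited values. H1f5 (a linker histone), Bmpr2 (a BMP receptor) and Pcm1 (of centriolar satellites) differed by -1.46, -1.19 and -1.14, and by -0.51, -0.51 and -0.30 without M003. In the deposited values these 3 differed by -0.13, -0.33 and -0.33. Mlf1 differed by -1.70 ± 0.50 in the scanner and -0.51 in the deposited values, and Ide, an insulin-degrading protease, by -1.27 ± 0.27 and -0.50 with its brightest probe, which was measured at d28 alone. A second Ide probe, measured at both time points, differed by -1.31 ± 0.32 in the scanner values (-0.79 at d21 and -1.77 at d28) and by -0.94 in the deposited values (limma adjusted p = 0.0233, under a 2-fold change).

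Of the remaining named genes with a higher mean, Angptl4, a secreted inhibitor of lipoprotein lipase, ran from -0.09 to 0.67 on 3 sham arrays and from 0.62 to 2.43 at 6 Gy. Its difference was 1.19 ± 0.39, but 0.32 within scan day 1 and 2.00 within scan day 2, 0.71 without M003 and 0.52 in the deposited values. Defb8 differed by 1.57 ± 0.68, and by -0.03 with the scanner software's own log ratio. Cpne2 differed by 1.13 ± 0.45, by 0.63 without M003 and by 0.66 in the deposited values. Hnrnpu, an RNA-binding protein, was measured on 1 sham array, so that its difference of 1.08 rests on that array, and it was at 0.36 in the deposited values.

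**Figure D5:**
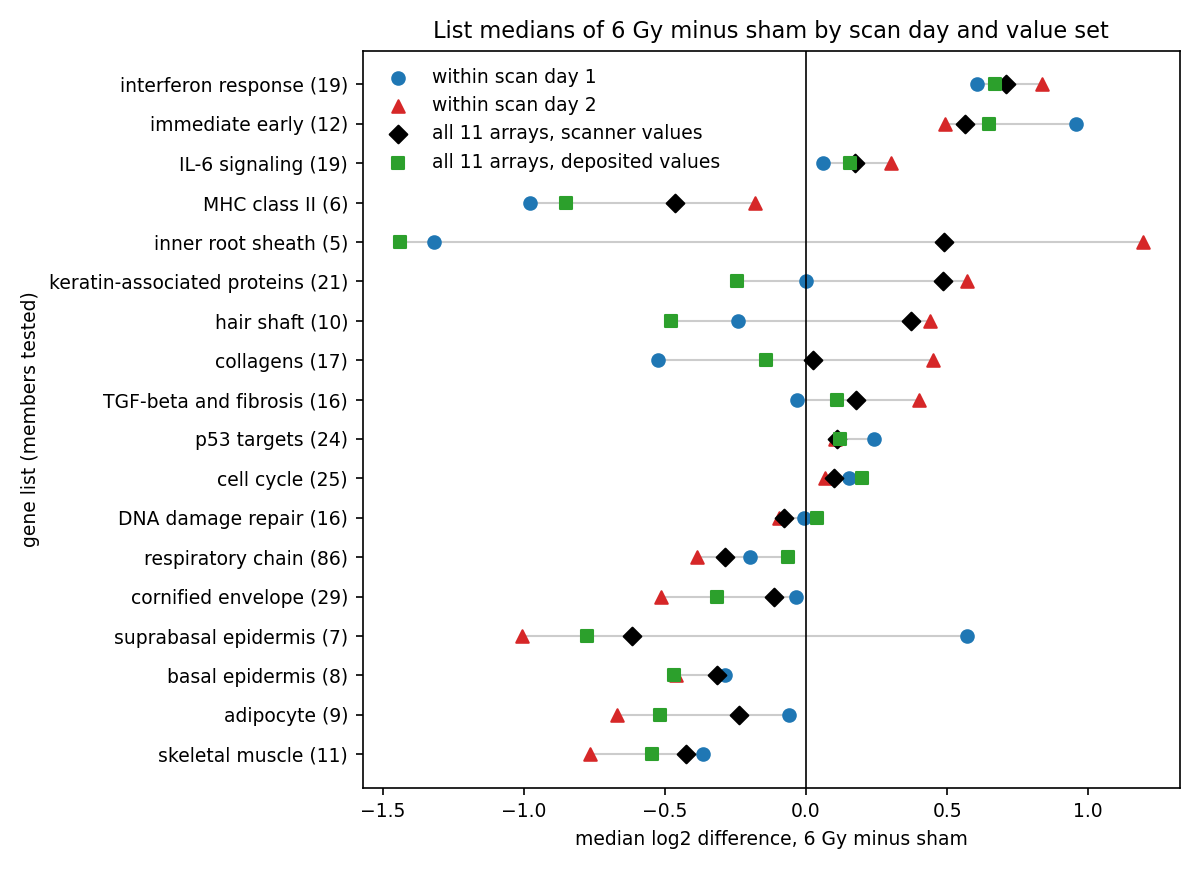
Median log2 difference of 6 Gy minus sham for 18 lists within scan day 1 (circles), within scan day 2 (triangles), over all 11 arrays in the scanner values (diamonds) and over all 11 arrays in the deposited values (squares). The interferon response list stays between 0.61 and 0.84 in all 4, whereas the inner root sheath list runs from -1.44 to 1.19.

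The time points themselves differed by 1 SDTG (0.00417%) in the scanner values over the 23968 probes tested with dose in the model, a probe without a gene symbol that was lower at d28 by 2.81 on the log2 scale (limma adjusted p = 0.036, a difference of -2.81 ± 0.29). This call was lost (0) with no mouse block, with median centering and without any 1 of M002, M003, M018, M019 and M020. The deposited values gave 59 higher and 186 lower. At d28 alone, 2 probes were SDTGs between 6 Gy and sham in the deposited values. Steap4, a metalloreductase of inflamed and fat tissue, was 1.70 and 1.42 in sham and 0.47 to 0.63 at 6 Gy at d28 (log2 difference -1.01, limma adjusted p = 0.0288). Cyp3a25, a cytochrome P450, was 1.05 and 0.85 in sham and 1.88 to 2.23 at 6 Gy at d28 (log2 difference 1.10, limma adjusted p = 0.0288).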

How the data were processed

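Skin RNA was measured on Agilent 2-color whole mouse arrays with Cy5 for the biopsy and Cy3 for the reference. The deposited scanner files hold spot intensity per channel, made with Agilent Feature Extraction (version 10.10.1.1 in the headers of the late arrays), together with the software's log10 ratio. The authors' table holds normalized log2 ratios, whose normalization steps are not given in the sources used here. From the intensity columns, background was removed with limma's normexp (offset 50), outlier spots were left out, arrays were normalized by loess, spots of a probe were averaged, and a probe was tested where at least 50% of either group's arrays had its Cy5 signal well above background. Arrays were grouped by the dose and time point of their labels. limma 3.58.1 in R 4.3.3 fitted dose with the time point as a term and the mouse as a random block. This block comes from the labels, which give the mouse of each array; arrays of the same mouse had residual correlations of -0.193 to 0.109 (scanner) and -0.624 to 0.00929 (deposited). The fit was also run on simulated data, with changes larger than the pooled differences named here and a positive correlation within mice. That run does not show the power at the sizes reported or how the deposited fit behaves. A gene was represented by its brightest probe, and 19054 of the 23974 tested probes had 1 gene symbol. The named genes were the up to 12 of lowest p per direction with at least a 2-fold difference, SDTGs of a comparison with 5 or fewer, and members of the gene lists. Members and lists were chosen with earlier results of these data known. Arrays give no read depth, and their number limits the precision. Alternatives covered normalization, background, filter, block, scan day, slide, value set and each mouse left out. Promoter windows came from RefSeq's table of GRCm38.p6.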

Additional observations from a re-analysis of the deposited data

Results flagged for a closer look

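Of the 70 groups of 4 arrays looked at, 1 had an array far from the others: the inner root sheath median deviation at 6 Gy on d28. M018 lay at -1.52, the nearest of the other arrays at 3.12 and the highest at 3.79, so that the gap made up 0.873 of the range. Chance gives such a gap in about 1 in 20 groups.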

How the results depend on the processing

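In the scanner values, no SDTG was called between 6 Gy and sham in the late phase under any of the alternatives run, the fit with no replicate block (0 higher and 0 lower) and those without each mouse in turn included. In the deposited values there were 18 higher and 11 lower, 1 and 3 without the replicate block, 2 and 6 over mouse means, and 0 to 77 higher and 0 to 71 lower with a mouse left out. Those counts were 77 and 71 without M002, 1 and 4 without M003, 8 and 14 without M019, 16 and 12 without M020, and 0 without M016 or M018. At d28 the deposited values gave 1 higher and 1 lower, and the scanner values 0 to 4 higher (4 without M018) and 0 to 1 lower (1 without M002). Between the time points the deposited values gave 59 higher and 186 lower. The 1 lower probe of the scanner values was lost without the replicate block (0) and with median centering (0), which moved the median of all probes to -0.16. With a mouse left out there were 0 to 5 higher (5 without M016) and 0 to 1 lower, where the 1 was without M016 and each other omission gave 0. Between 6 and 3 Gy the deposited values gave 27 higher and 9 lower, and slide as a fixed term 1 higher. With slide as a fixed term over the 26 late arrays, where no slide held both sham and 6 Gy, the log2 differences changed sign for Bst2 (-0.40), Gbf1 (0.31), Crct1 (2.26), Mylpf (5.23), Acer1 (2.51), Flg2 (2.83), Mlf1 (1.47) and Bmpr2 (0.21). Defb8 was at -0.033 with the scanner software's log ratio, and Gbf1 in the deposited values at 0.12, 0.025, 0.023 and 0.018 without M002, M018, M019 and M020. The cause of these changes was not tested. The interferon response median kept its sign in 34 of 34 settings (0.52 to 1.71). So did the MHC class II (-0.98 to -0.18) and immediate early (0.33 to 0.96) medians, but the collagen median in 18 of 34 (-0.53 to 0.45) and the inner root sheath median in 24 (-2.32 to 1.51). With slide as a fixed term the medians of skeletal muscle (2.58), adipocyte (1.45), suprabasal (0.57), cornified envelope (0.27) and respiratory chain (0.49) genes were above 0.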

Other observations

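Per1, a light- and glucocorticoid-responsive gene of the circadian clock, was the 1 member of that list under 0.05 without adjustment in the scanner values. It ran from -1.66 to -0.84 in sham and from -0.98 to 0.57 at 6 Gy, with a log2 difference of 0.95 ± 0.31, and of 0.32 in the deposited values. The 10 tested clock genes had a median of -0.04 in the scanner values (4 higher) and of 0.23 in the deposited values (8 higher), and the sign of the scanner median was kept in 16 of 34 settings. Of the 17 genes of lipid and sterol synthesis, 15 had a higher mean at 6 Gy, with a median of 0.18 in the scanner and 0.17 in the deposited values. The 6 smooth muscle and pericyte markers had a median of 0.25 in the scanner values, which was -0.17 without M003, and of 0.18 in the deposited values.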
